A study of Homo sapiens with 4 samples.

Results

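The genes described here are known for control of the G1 phase, and their RNA was read in 2 human mantle cell lymphoma lines. They are the D cyclins CCND1, CCND2 and CCND3, their kinases CDK4 and CDK6, the INK4 inhibitors CDKN2A, CDKN2B and CDKN2C, the KIP inhibitor CDKN1B and the retinoblastoma gene RB1. The set was named by symbol, and all 10 symbols were found among the 25277 of the expression table. RNA was sequenced from 4 cultures of the established B cell lymphoma lines Z138 and Mino. Each line was a stable line with a tet-on vector, carrying either an inducible short hairpin against BTK (shBTK) or a control vector named sc4. The labels do not say what sc4 expresses. All 4 cultures had received doxycycline for 48 hours, so the agent was shared by shBTK and control libraries. There was 1 library each of Z138 shBTK, Z138 control, Mino shBTK and Mino control, and no second hairpin was analysed here. What the hairpin does off target therefore cannot be told apart from what BTK loss does.

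D cyclins bind CDK4 or CDK6, and the complexes phosphorylate the RB1 protein, which then releases E2F transcription factors and lets the cell enter S phase. INK4 proteins bind CDK4 and CDK6 and keep the cyclin out, whereas the KIP protein p27, made from CDKN1B, binds cyclin and kinase together and restrains CDK2. Mantle cell lymphoma is known for a translocation that places CCND1 under immunoglobulin heavy chain enhancers, and BTK is the kinase that relays B cell receptor signals. Expression is given in FPKM, which scales fragments by transcript length and by library size, so levels of different genes can be set side by side. The number of reads is unknown, and no counting interval can be given. In bulk RNA, less RNA in every cell and fewer cells that express a gene cannot be told apart.

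Sequences upstream of 3 of the genes are shown, and CDKN2A has more than 1 start. They are a choice among the genes whose listed levels differ between the lines. CCND3, CDK6, CDKN2C, CDKN1B and RB1 differ too and had sequences that are not shown, more than 1 each for CCND3, CDK6 and CDKN2C. CDKN2A makes p14ARF from its upstream start and p16INK4a from its downstream start, and the table holds a single value for the gene. RefSeq windows (GRCh38.p14) were matched for 8 of the 10 genes. Each of the following runs holds the 250 bases before a start, 5′ to 3′ on the strand of the gene. Capitals mark GGGCGG or its reverse complement CCGCCC, the box bound by SP1, in CDKN2A and CDKN2B. In CDK4 they mark CACGTG, the E-box bound by MYC and its relatives. Each gene was searched for its own box only. CCGCCC also stands unmarked in the CDK4 run, so the capitals do not compare the genes.
CDKN2A upstream start, chr9:21995325-21995574, minus strand: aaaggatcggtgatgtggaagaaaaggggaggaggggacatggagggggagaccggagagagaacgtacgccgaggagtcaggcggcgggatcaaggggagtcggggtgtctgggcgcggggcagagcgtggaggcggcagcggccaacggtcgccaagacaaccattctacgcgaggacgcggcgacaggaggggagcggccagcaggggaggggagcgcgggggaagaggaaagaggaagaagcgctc
CDKN2A downstream start, chr9:21974858-21975107, minus strand: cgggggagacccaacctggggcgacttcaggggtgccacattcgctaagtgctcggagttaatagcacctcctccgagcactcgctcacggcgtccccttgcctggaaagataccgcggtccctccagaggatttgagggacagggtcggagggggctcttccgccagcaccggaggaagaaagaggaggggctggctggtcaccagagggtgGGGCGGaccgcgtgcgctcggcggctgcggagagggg
CDKN2B, chr9:22009306-22009555, minus strand: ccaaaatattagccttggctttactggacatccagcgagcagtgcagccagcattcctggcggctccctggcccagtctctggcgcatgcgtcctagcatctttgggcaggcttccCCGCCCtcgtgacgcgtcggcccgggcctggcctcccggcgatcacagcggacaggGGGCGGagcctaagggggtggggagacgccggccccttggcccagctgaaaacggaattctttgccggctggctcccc
CDK4, chr12:57752311-57752560, minus strand: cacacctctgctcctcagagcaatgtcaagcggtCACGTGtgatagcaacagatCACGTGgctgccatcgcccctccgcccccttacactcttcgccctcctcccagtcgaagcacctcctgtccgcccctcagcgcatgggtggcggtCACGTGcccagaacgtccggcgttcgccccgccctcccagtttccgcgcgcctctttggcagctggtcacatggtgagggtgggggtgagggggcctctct

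GGGCGG was found 0 times before the upstream start of CDKN2A, 1 time before its downstream start and 2 times before CDKN2B. It was present in 42.6% of 35116 windows of the same length. CACGTG was found 3 times before CDK4 and was present in 6.34% of the windows. It reads the same on both strands, so each match was counted a single time, and none of these matches overlapped another. The matches describe letters and were not tested as binding sites. The genome build of the expression table is hg19, per the submitters' processing notes, and no position was converted.

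BTK was examined first because the hairpin targets it. BTK was at 12.4 FPKM in Z138 shBTK and 51.0 in Z138 control, and at 9.84 FPKM in Mino shBTK and 37.0 in Mino control. Both shBTK libraries lay below both controls, at 24.3% of the control value in Z138 and 26.6% in Mino. Each library held between 14953 and 16007 symbols above 0, and the columns summed to between 669013 and 740192 FPKM. The 6 B cell markers summed to 999 and 984 FPKM in Z138 shBTK and control, against 1331 and 1334 in Mino shBTK and control. CD22, one of them, was at 5.96 and 3.34 FPKM in Z138 shBTK and control, against 102 and 107 in Mino shBTK and control. PAX5, a B cell transcription factor gene, was at 14.5 to 22.9 FPKM in all 4 libraries. SOX11, a marker of mantle cell lymphoma, was at 19.8 to 23.6 FPKM. CD5, another, was at 0.0531 and 0.0751 FPKM in the Z138 libraries and at 1.70 and 2.33 in the Mino libraries. The 4 T cell markers summed to 4.65 and 4.53 FPKM in Z138 shBTK and control, against 0.344 and 0.161 in Mino shBTK and control, with CD2 listed at 0 throughout and CD3G in both Mino libraries. The 4 myeloid markers summed to 0.147 to 0.482 FPKM. The 4 stromal and epithelial markers summed to 1.07 and 1.32 FPKM in Z138 shBTK and control, against 33.6 and 37.3 in Mino shBTK and control, most of it KRT8 in Mino, with COL1A2 listed at 0 in both Z138 libraries. These marker sums move with the line, as do the values that follow, and their part in them was not tested.

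The first comparison asked how the G1 genes differ between Z138 and Mino. CCND1, CDK4, CDKN1B and RB1 were higher in Z138, and CCND3, CDK6, CDKN2A and CDKN2C were lower in Z138 than in Mino. In limma, which compared the lines with the vector as a second term, all 8 of the genes that could be tested passed at an adjusted p of 0.05, 4 higher and 4 lower in Z138. One of the 4 lower genes, CDKN2A, entered the test only through its Mino values and was compared with listed zeros. Over all 11484 tested symbols 67.4% passed, 28.7% higher in Z138 and 38.8% lower, so passing is common between these lines and is not particular to these genes. CCND2 and CDKN2B, with a mean under 1 FPKM, were not tested.

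CCND1, the cyclin that defines mantle cell lymphoma, was at 600 FPKM in Z138 shBTK, 591 in Z138 control, 2.62 in Mino shBTK and 3.18 in Mino control. Both Z138 libraries were far above both Mino libraries, and the difference of 7.26 on the log2(FPKM + 1) scale (SE 0.13, limma adjusted p = 7.14e-08) was the 3rd largest of the 11484 tested. The mean FPKM was 205-fold higher in Z138. In both Z138 libraries CCND1 stood at the 99.0 percentile of the symbols above 0, against the 38.4 percentile in Mino shBTK and the 41.6 percentile in Mino control. The Mino level goes against the high CCND1 that the label mantle cell lymphoma would lead to, while SOX11 did not pass between the lines (log2 difference −0.10, SE 0.13, limma adjusted p = 0.513). Whether the Mino value reflects the cells or the estimate was not tested.

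CCND3, the D cyclin that most lymphocytes use, was at 13.6 FPKM in Z138 shBTK, 15.3 in Z138 control, 31.5 in Mino shBTK and 28.4 in Mino control. The Z138 values lay below both Mino values, with a log2 difference of −1.003 (SE 0.14, limma adjusted p = 0.000303). CCND2, the remaining D cyclin, was at 0.00793, 0.00729, 0.00637 and 0.00585 FPKM in Z138 shBTK, Z138 control, Mino shBTK and Mino control. These values are at the bottom of each library, at the 0.562 to 2.22 percentile. Among values up to 0.1 FPKM, the commonest ratio of Z138 shBTK to Mino control was 1.39, and the CCND2 ratio was 1.35. For Z138 shBTK to Mino shBTK these were 1.28 and 1.24, and for Mino shBTK to Mino control 1.07 and 1.09. CCND2 thus differed between these libraries by about the step that many low symbols share, within 0.05 on the log2 scale. In pairs with Z138 control, the commonest ratio held for 6.52% of low symbols at most.

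Summed over the 3 D cyclins, the libraries held 614 FPKM in Z138 shBTK, 607 in Z138 control, 34.1 in Mino shBTK and 31.5 in Mino control. CCND1 made up 97.8% and 97.5% of the sum in Z138 shBTK and control, against 7.69% and 10.1% in Mino shBTK and control. CCND3 made up 92.3% of the sum in Mino shBTK and 89.9% in Mino control. As deposited, CCND1 led the sum in Z138 and CCND3 in Mino, and the Mino shares rest on the low value of CCND1 there.

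**Figure D1:**
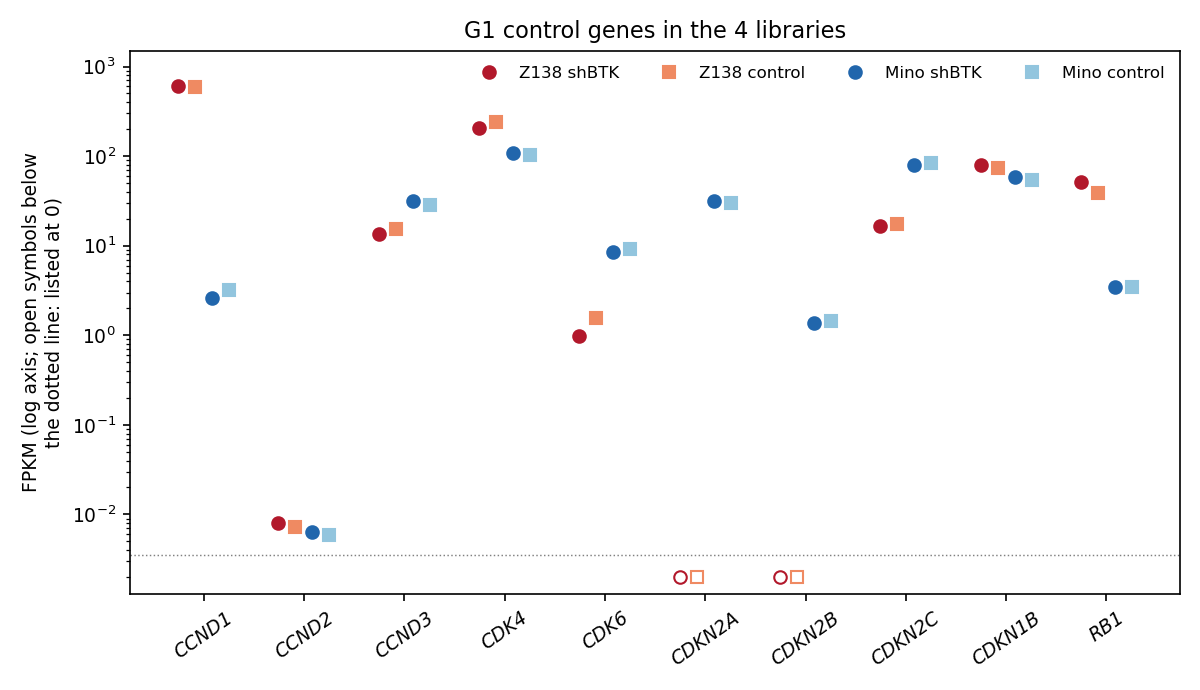
FPKM on a log axis for the 10 genes in Z138 shBTK, Z138 control, Mino shBTK and Mino control, 1 point per library. Open symbols below the dotted line are values listed at 0. CCND1 is near 600 FPKM in Z138 and near 3 in Mino, and CDKN2A and CDKN2B are listed at 0 in both Z138 libraries.

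CDK4, whose upstream sequence with its CACGTG boxes is printed above, is the main partner of cyclin D1. It was at 203 FPKM in Z138 shBTK, 239 in Z138 control, 109 in Mino shBTK and 102 in Mino control. Both Z138 values lay above both Mino values, a log2 difference of 1.06 (SE 0.13, limma adjusted p = 0.000157). CDK6, the sister kinase that lymphoid cells also use, was at 0.994 FPKM in Z138 shBTK, 1.55 in Z138 control, 8.50 in Mino shBTK and 9.08 in Mino control. By the means it was 6.90-fold lower in Z138, with a log2 difference of −2.12 (SE 0.15, limma adjusted p = 6.92e-06). CDK4 exceeded CDK6 in every library, by 205-fold in Z138 shBTK, 154-fold in Z138 control, 12.8-fold in Mino shBTK and 11.3-fold in Mino control. TSPAN31, which overlaps the end of CDK4 on the other strand, was at 11.0 to 12.5 FPKM, and the counting is not stated to use strand.

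CDKN2A, the source of p16INK4a and p14ARF, was listed at 0 in both Z138 libraries and at 31.4 FPKM in Mino shBTK and 30.3 in Mino control. CDKN2B, the source of p15INK4b, was likewise listed at 0 in both Z138 libraries and at 1.36 and 1.44 FPKM in Mino shBTK and control. No fold change is given against values of 0. CDKN2A passed in limma (adjusted p = 1.54e-07) and CDKN2B was under the filter. The CDKN2A call rests on the listed zeros, and a listed 0 may be a failed estimate. EEF1A1, which every cell needs for translation, had 6911 FPKM in Z138 shBTK, 0 in Z138 control, 6976 in Mino shBTK and 6404 in Mino control. In all, 39 symbols were listed at 0 in both Z138 libraries and at 5 FPKM or more in both Mino libraries. CDKN2A and CDKN2B share similar coding sequence, so reads could be split between them.

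CDKN2C, the source of p18INK4c, was at 16.7 FPKM in Z138 shBTK, 17.3 in Z138 control, 79.8 in Mino shBTK and 84.0 in Mino control. The Z138 values were well below the Mino values, 4.82-fold by the means, with a log2 difference of −2.20 (SE 0.12, limma adjusted p = 2.14e-06). CDKN2D, the fourth INK4 gene and source of p19INK4d, was at 6.49 FPKM in Z138 shBTK, 8.17 in Z138 control, 7.64 in Mino shBTK and 8.77 in Mino control and did not pass (log2 difference −0.15, SE 0.14, limma adjusted p = 0.356). Together the INK4 genes summed to 23.2 FPKM in Z138 shBTK and 25.5 in Z138 control, against 120 in Mino shBTK and 124 in Mino control. Set against the sum of CDK4 and CDK6, INK4 RNA came to 11.3% and 10.6% in Z138 shBTK and control, against 102% and 112% in Mino shBTK and control. The INK4 sums take the whole CDKN2A value, which also covers p14ARF and made up 26.1% and 24.3% of the sum in Mino shBTK and control. In Z138 they take the listed zeros of CDKN2A and CDKN2B as they stand. Z138 held a D cyclin sum 3.004 and 2.52 times the kinase sum in shBTK and control. In Mino shBTK and control the D cyclin sum was 0.290 and 0.283 times the kinase sum, and this rests on the low value of CCND1 there.

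**Figure D2:**
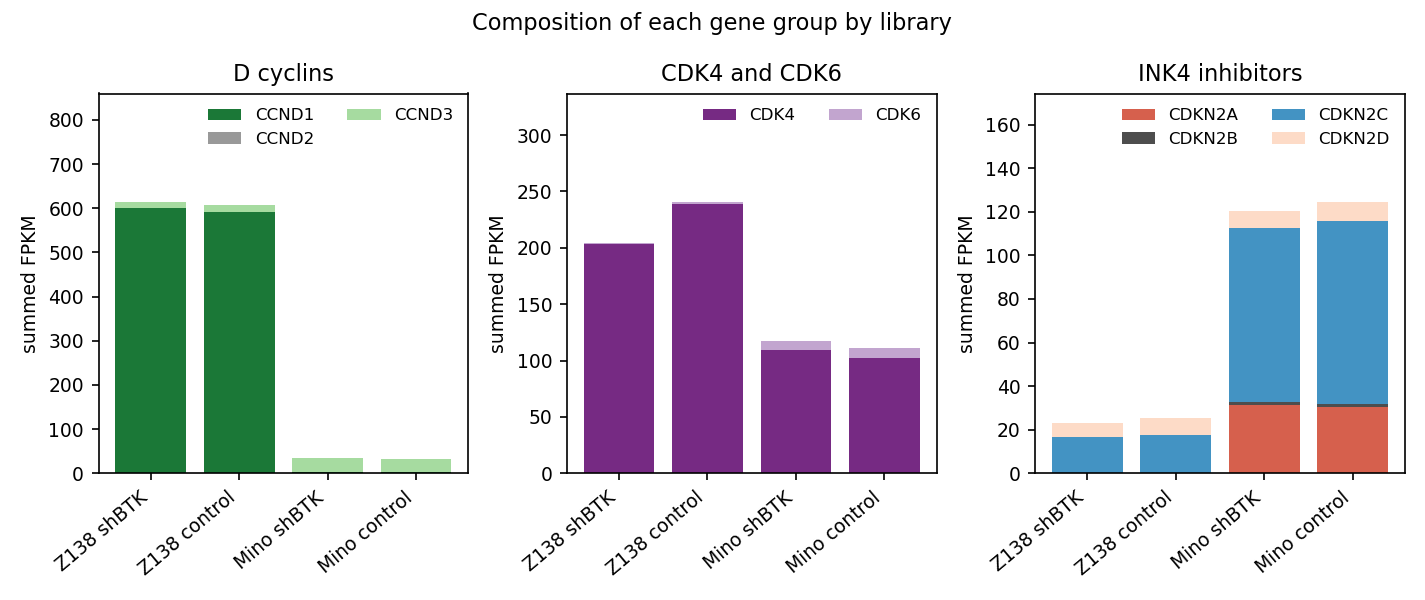
Summed FPKM of the D cyclins, of CDK4 and CDK6, and of the INK4 inhibitors (with CDKN2D) in each library, stacked by gene, on axes that start at 0. The D cyclin bars reach 614 and 607 FPKM in Z138 shBTK and control, against 34.1 and 31.5 in Mino shBTK and control, while the INK4 bars reach 120 and 124 in Mino shBTK and control.

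CDKN1B, the source of p27, was at 78.6 FPKM in Z138 shBTK, 73.1 in Z138 control, 58.5 in Mino shBTK and 53.8 in Mino control. The lines did not overlap, but the difference was the smallest of the tested members, 0.43 on the log2 scale (SE 0.12, limma adjusted p = 0.0125, 95% interval 0.15 to 0.70). The median of all tested symbols between the lines was −0.12. RB1, the substrate of the D cyclin kinases, was at 51.7, 39.2, 3.42 and 3.45 FPKM in Z138 shBTK, Z138 control, Mino shBTK and Mino control. It was 13.2-fold higher in Z138 by the means, with a log2 difference of 3.37 (SE 0.15, limma adjusted p = 7.80e-07). RB1 supplied 75.3% and 72.5% of the summed FPKM of the pocket protein genes RB1, RBL1 and RBL2 in Z138 shBTK and control, against 22.7% and 22.0% in Mino shBTK and control. RBL2, the source of p130, did not pass between the lines (log2 difference 0.11, SE 0.15, limma adjusted p = 0.544).

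**Figure D3:**
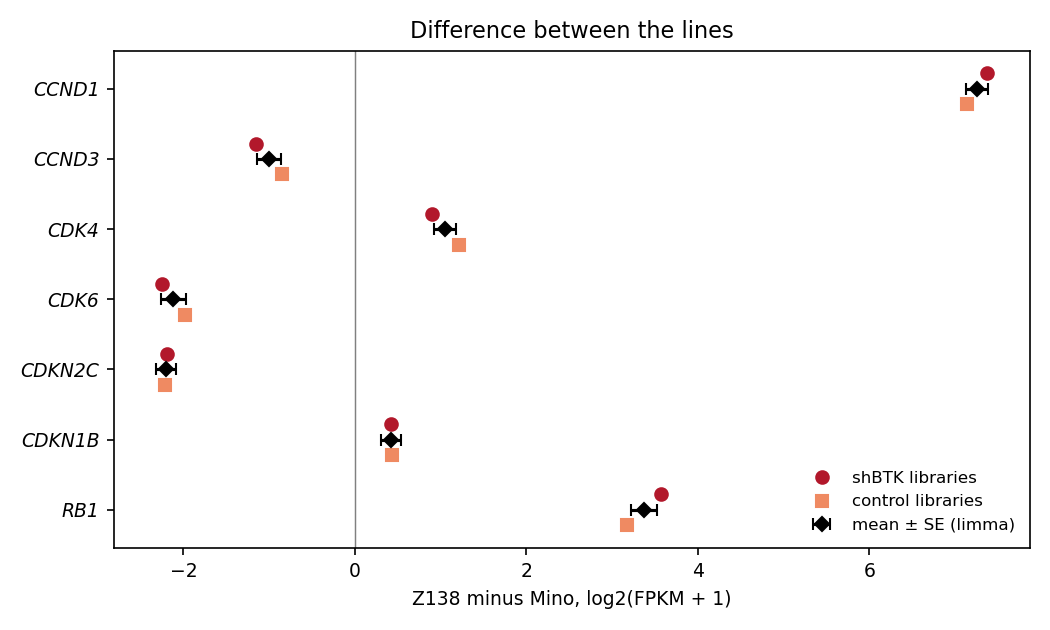
Z138 minus Mino on the log2(FPKM + 1) scale for the tested genes, with the shBTK libraries, the control libraries and the limma mean ± SE. CCND1, CDK4, CDKN1B and RB1 lie to the right of 0, and CCND3, CDK6 and CDKN2C to the left. CDKN2A is not drawn because it is listed at 0 in Z138.

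Values of genes beside CCND1 and CDKN2A were read to see whether the line difference extended to neighbours. Of the 10 nearest protein-coding genes around CCND1, 8 could be matched to the table and 2 were above the filter. TPCN2, an endolysosomal ion channel gene, was at 9.92 and 9.77 FPKM in Z138 shBTK and control, against 3.57 and 3.14 in Mino shBTK and control (log2 difference 1.32, SE 0.14, limma adjusted p = 6.84e-05). ORAOV1 (now LTO1) was at 7.95 and 8.39 FPKM in Z138 shBTK and control, against 3.13 and 2.94 in Mino shBTK and control (log2 difference 1.18, SE 0.14, limma adjusted p = 0.000131). Both were higher in Z138, by far less than the 7.26 of CCND1. Of all 11484 tested symbols 28.7% passed as higher in Z138 and 67.4% passed in either direction. These 2 calls therefore do not show that the difference extends along the locus. FGF19, FGF4 and FGF3 were listed at 0 in every library.

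Beside CDKN2A, MTAP, the gene of a methionine salvage enzyme, was at 7.63 and 6.67 FPKM in Z138 shBTK and control, against 7.88 and 7.61 in Mino shBTK and control. It did not pass between the lines (log2 difference −0.10, SE 0.14, limma adjusted p = 0.522). CDKN2B-AS1, an RNA that runs antisense across CDKN2B, was at 0.210 and 0.0715 FPKM in Z138 shBTK and control, against 1.27 and 1.33 in Mino shBTK and control. Reads of CDKN2B and its antisense partner cannot be told apart without strand. DMRTA1, on the far side of CDKN2B, was listed at 0 in both Z138 libraries and at 0.0233 and 0.0214 FPKM in Mino shBTK and control. IFNA2, IFNA8, IFNA1, IFNE, ELAVL2, IZUMO3 and TUSC1 were listed at 0 in every library, so of these neighbours MTAP alone had a level above 5 FPKM to compare.

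**Figure D4:**
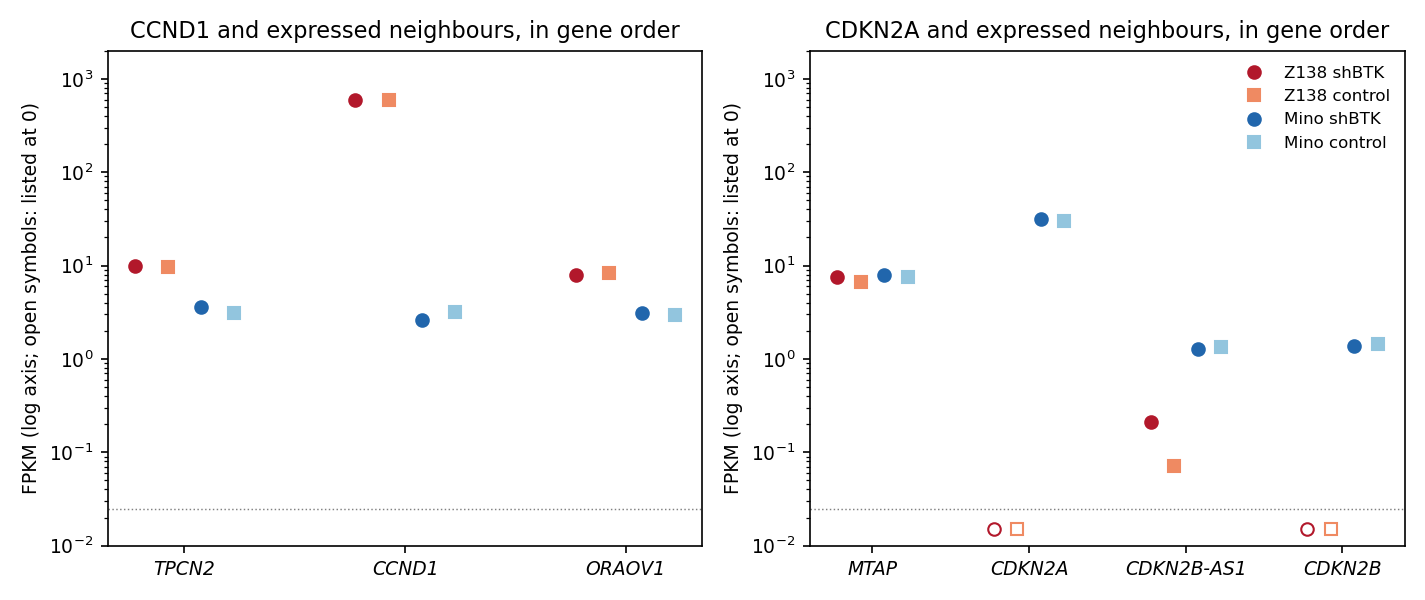
FPKM on a log axis of CCND1 and CDKN2A with their expressed neighbours in gene order, 1 point per library, in Z138 shBTK, Z138 control, Mino shBTK and Mino control. Open symbols are values listed at 0. MTAP lies between 6.67 and 7.88 FPKM in all libraries, next to CDKN2A at 0 in Z138 and near 31 in Mino.

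The second comparison asked whether BTK knockdown changed these genes in the same way in both lines. None of the 8 tested genes passed in limma with the line as the pairing term. For CDKN2A the Z138 ratio is fixed by its listed zeros, so its result rests on Mino alone. Of all 11484 symbols 14 passed, 7 higher and 7 lower in shBTK, which is 0.122% of them, and 320 had an unadjusted p under 0.05. With median-of-ratios scaling the split was 15 higher and 9 lower, and with GC and length trends removed 1 higher and 6 lower. BTK passed with a log2 change of −1.88 (SE 0.13, limma adjusted p = 0.000964). Each of the 8 genes had a limma adjusted p of 1.00. Within the pairs, CDK6 and CDKN2C were lower in shBTK in both lines as deposited, and CDKN1B was higher in both. CCND2 was listed higher in both as well, but at the bottom of each library. In Mino its ratio of 1.09 lay by the commonest ratio of low symbols, 1.07, and no response is read from it.

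No D cyclin passed. CCND1 had log2 ratios of shBTK to control of 0.02 in Z138 and −0.21 in Mino, a mean of −0.09 (SE 0.13, 95% interval −0.38 to 0.20). CCND3 had −0.16 in Z138 and 0.15 in Mino, a mean of −0.01 (SE 0.14, 95% interval −0.32 to 0.31). CDK4, their kinase, had −0.23 in Z138 and 0.09 in Mino, a mean of −0.07 (SE 0.13, 95% interval −0.37 to 0.22). For CCND1, CCND3 and CDK4 the lines had ratios of opposite sign, a difference that was not tested because each line has a single pair of libraries. The sign of the Z138 ratio of CCND1 is not settled, since it was −0.03 with median-of-ratios scaling.

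CDK6 was lower in each shBTK library than in the control of its line, at 63.9% of the control value in Z138 and 93.6% in Mino. Its log2 ratios were −0.36 and −0.09, with a mean of −0.22 (SE 0.15, 95% interval −0.56 to 0.11), and the Z138 level was near 1 FPKM, where the added 1 shrinks a ratio. With 0.1 added instead the Z138 ratio was −0.60, past 1.5-fold, and the mean was −0.35 (SE 0.20). With a mean of 5 FPKM required the SE of the mean ratio was 0.195, so a 1.5-fold lower level lies within the error of these alternatives. In Mino the ratio was 0.04 with GC and length trends removed. No inhibitor passed. CDKN2A had a log2 ratio of 0.05 in Mino and CDKN2B −0.05. CDKN2C had −0.05 in Z138 and −0.07 in Mino, a mean of −0.06 (SE 0.12, 95% interval −0.34 to 0.22), and its Z138 ratio was 0.05 with GC and length trends removed. CDKN1B, at 107.5% of control in Z138 and 108.7% in Mino, had ratios of 0.10 in Z138 and 0.12 in Mino (mean 0.11, SE 0.12, 95% interval −0.16 to 0.38). This is higher in 2 of 2 lines and did not pass the test.

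RB1 was at 132% of control in Z138 shBTK and at 99.2% in Mino shBTK, with log2 ratios of 0.39 and −0.01 and a mean of 0.19 (SE 0.15, 95% interval −0.15 to 0.53). In Z138 the ratios of all tested symbols ran down with GC content (Spearman rho −0.56 across genes, which are not independent), and in Mino slightly up (rho 0.11). The longest RB1 transcript is 37.3% GC. With GC and length trends removed the RB1 ratio was 0.21 in Z138 and 0.02 in Mino. On the log2(FPKM + 1) scale no tested gene of the set reached 1.5-fold in either line (0 of 8 in each). Of all tested symbols 1.76% reached it in Z138 and 2.16% in Mino. CDKN2A could not reach it in Z138, where both of its values are listed at 0. On plain FPKM, CDK6 in Z138 was past 1.5-fold.

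**Figure D5:**
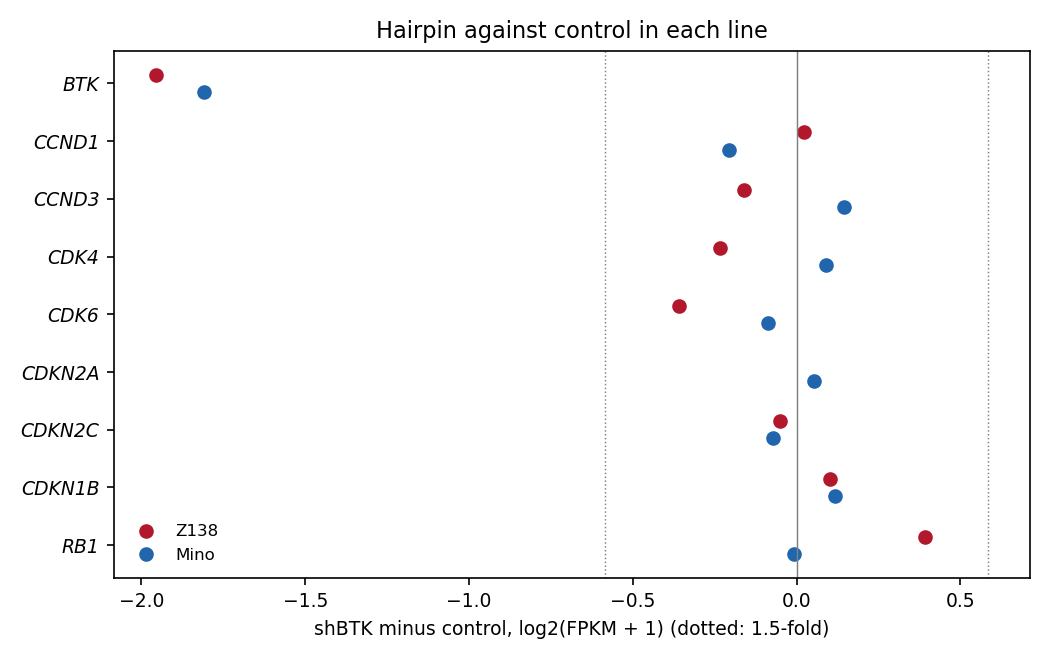
Log2 ratio of shBTK to control on the log2(FPKM + 1) scale in Z138 and in Mino for BTK and the 8 tested genes, 1 point per line. Dotted lines mark 1.5-fold. BTK lies at −1.96 in Z138 and −1.81 in Mino, and every G1 gene lies between −0.36 and 0.39. CDKN2A has no Z138 point because both Z138 values are 0.

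Other genes of the pathway were read for the same comparisons. In the hairpin comparison no member of the lists named in this and the following paragraph passed in limma. Over all tested symbols the median log2 ratio was 0.03 in Z138 and −0.01 in Mino. The later G1 list of 11 genes (cyclins E and A, their kinases and the other inhibitors) had medians of −0.04 in Z138 and −0.12 in Mino. Its member CDKN1C, the source of the KIP inhibitor p57, was at 36.5 and 37.4 FPKM in Z138 shBTK and control, and at 23.9 and 31.3 in Mino shBTK and control. The 12 pocket protein and E2F genes had medians of −0.02 and 0.03. E2F1, one of the E2F factors that RB1 restrains, was at 39.7 and 53.5 FPKM in Z138 shBTK and control, and at 71.7 and 72.0 in Mino shBTK and control. Its log2 ratio was −0.42 in Z138 and −0.01 in Mino. E2F2 had −0.15 in Z138 and 0.05 in Mino, and E2F3 had 0.11 in Z138 and −0.18 in Mino. These ratios were not read with GC and length trends removed.

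The 6 MuvB and DREAM genes had medians of 0.08 in Z138 and 0.06 in Mino. The 20 E2F target genes of the G1/S transition had −0.03 and −0.03, with 9 of 20 above 0 in Z138 and 8 of 20 in Mino. The 12 tested genes for turnover of D cyclins and p27 had −0.08 and 0.02. The 8 G2 and mitosis genes split by line: all 8 were above 0 in Z138, with a median of 0.16, and 0 of 8 in Mino, with a median of −0.18. Of all 11484 tested symbols, 6354 were above 0 in Z138 and 5474 in Mino. MKI67, the proliferation marker, was at 18.9 and 16.3 FPKM in Z138 shBTK and control, and at 19.3 and 26.998 in Mino shBTK and control. None of the 8 passed, and whether the lines respond differently was not tested. The ratios of all tested symbols ran down with GC content in Z138 (Spearman rho −0.56) and slightly up in Mino (rho 0.11). The G2 and mitosis ratios were not read with that trend removed, so its part in the split was not tested.

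Between the lines, 6 of the 11 later G1 genes passed, against 67.4% of all tested symbols. Rescaling moved the median difference of all symbols from −0.12 to −0.23 with TPM and to 0.00 with median-of-ratios scaling. A list median no larger than such a shift, on either side, has no settled sign. CCNE1, which activates CDK2 after the D cyclins have acted, was at 3.37 and 3.89 FPKM in Z138 shBTK and control, against 36.4 and 38.7 in Mino shBTK and control (log2 difference −3.06, SE 0.13, limma adjusted p = 6.80e-07). CDK2, CCNA2 and CCNH were also lower in Z138. CDKN1A, the source of p21, was at 189 and 212 FPKM in Z138 shBTK and control, against 69.1 and 75.2 in Mino shBTK and control (log2 difference 1.46, SE 0.12, limma adjusted p = 1.44e-05), and CDKN1C was also higher in Z138. In all, 2 of 11 passed as higher and 4 of 11 as lower, beside 28.7% and 38.8% of all symbols, with a list median of −0.27.

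Of the 12 pocket protein and E2F genes, RBL1, E2F4 and E2F6 were higher in Z138 and E2F1 and TFDP1 lower, with a median difference of −0.01. In the MuvB and DREAM list LIN9 and LIN54 were higher, and LIN37 and MYBL2 lower. MYBL2, a transcription factor that joins MuvB in cycling cells, was at 121 and 126 FPKM in Z138 shBTK and control, against 269 and 252 in Mino shBTK and control (log2 difference −1.07, SE 0.12, limma adjusted p = 8.91e-05). Among 20 E2F targets 3 were higher in Z138, CDC6 and POLA1 among them, and 10 lower (MCM2, MCM5, MCM6, CDT1, PCNA, RRM1, RRM2, TYMS, GINS2 and ORC1), with a median of −0.27. RRM2, the ribonucleotide reductase subunit, was at 35.6 and 34.5 FPKM in Z138 shBTK and control, against 102 and 122 in Mino shBTK and control (log2 difference −1.64, SE 0.13, limma adjusted p = 1.45e-05). The shares, 3 and 10 of 20, stand beside 28.7% and 38.8% of all tested symbols.

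Of the 12 tested turnover genes 3 passed as higher and 3 as lower in Z138, again beside 28.7% and 38.8% of all symbols. SKP2, the ubiquitin ligase subunit that marks p27 for destruction, was at 9.74 and 10.8 FPKM in Z138 shBTK and control, against 32.2 and 32.1 in Mino shBTK and control (log2 difference −1.56, SE 0.13, limma adjusted p = 1.84e-05). FBXO4, an F-box protein described as acting on cyclin D1, and GSK3B, a kinase that marks cyclin D1 for export and decay, were lower as well. USP2, a protease that removes ubiquitin from cyclin D1, was at 4.84 and 5.29 FPKM in Z138 shBTK and control, against 1.22 and 1.43 in Mino shBTK and control (log2 difference 1.38, SE 0.14, limma adjusted p = 5.00e-05). RNF123, a ligase for p27, and FBXO31 were higher too. AMBRA1, the main substrate receptor for D cyclins, did not pass (log2 difference 0.24, SE 0.13, limma adjusted p = 0.148). CCNB1, CCNB2, CDK1, AURKA and TOP2A were lower in Z138 and BUB1 higher among the 8 G2 and mitosis genes.

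Genes whose profile over the 4 libraries was most like that of a member were found by the root mean square difference of centred log2(FPKM + 1) values among the 8171 symbols averaging 5 FPKM or more. For CCND1 these were RPS4Y1, a Y-linked ribosomal protein gene, at 0.09, and IGLL1, a surrogate light chain gene, at 0.33. SFRP5, a secreted WNT antagonist, came next at 0.36. The likeness to CCND1 follows from a large gap between the lines over 4 libraries, and no link between these genes was tested. RPS4Y1 was at 206 and 201 FPKM in Z138 shBTK and control, against 0.417 and 0.614 in Mino shBTK and control. IGLL1 was at 151 and 225 FPKM in Z138 shBTK and control, against 0.705 and 0.370 in Mino shBTK and control. For CDKN1B the most alike were ZADH2, RWDD2A and MIEF1, at 0.00478, 0.00870 and 0.0129. MIEF1, a mitochondrial dynamics gene, was at 21.3 and 20.2 FPKM in Z138 shBTK and control, against 15.7 and 14.6 in Mino shBTK and control. No likeness is given for CCND2, because the added 1 makes a profile at its level flat.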

How the data were processed

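RNA was extracted with a column kit and made into Illumina TruSeq RNA libraries, per the labels' protocols. The authors deposited 1 table of FPKM values with 1 column per library, per the file headers. The submitters' processing notes name TopHat and hg19 and give no version. The sources used here do not give how FPKM was computed or with which annotation. Columns were matched to libraries by line and vector. FPKM values are not counts, and depth is unknown. Values were analysed as log2(FPKM + 1) with limma 3.58.1 in R 4.3.3. The model had line and vector as additive terms and a mean-variance trend. It covered 11484 symbols averaging 1 FPKM or more, with Benjamini-Hochberg adjustment over all of them. This left 1 residual degree of freedom, and the moderation added 6.88 from the spread over all tested symbols. Each SE, interval and p-value therefore rests mostly on that shared spread and little on the cultures of the gene itself. They speak of these cultures only, and the moderation is poorly determined. Each shBTK library was paired with the control of its own line. Within a line there was no replicate and no test, only a 1.5-fold size rule. GC content and length came from the longest GENCODE 29 transcript, found for 93.9% of tested symbols. The members and gene lists were chosen with earlier results of these data known. All 10 members are named. Of the other lists, those passing and a few of high level are named, except that some counted members are not reported here by name. No other columns were present.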

Additional observations from a re-analysis of the deposited data

Results flagged for a closer look

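CCND1, CCND3, CDK4 and RB1 stood out because their shBTK to control ratios had opposite signs in the lines. The log2 ratio in Z138 minus that in Mino was 0.23 for CCND1, −0.31 for CCND3, −0.32 for CDK4 and 0.40 for RB1. Each line has a single pair of libraries, so none of these differences was tested. For RB1 the Mino ratio was −0.01, and with GC and length trends removed it was 0.02, so its sign there is not settled. In Z138 the ratios of all tested symbols also ran with GC content (rho −0.56), and with GC and length trends removed the Z138 ratios were 0.01 for CCND1, −0.06 for CCND3, −0.15 for CDK4 and 0.21 for RB1.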

How the results depend on the processing

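All 7 tested members with values above 0 in every library passed between the lines under each of the 9 alternatives that allow a test, with the same sign, and CDKN2A passed against its listed zeros in the 8 that included it. CCND2 and CDKN2B were tested only without a filter, where 9 of 10 members passed. CCND2 did not pass there, and CDKN2B passed against its listed zeros in Z138. CDKN1B came nearest to the threshold, with the columns rescaled to TPM (limma adjusted p = 0.0469; range over the alternatives 0.00256 to 0.0469). That rescaling gave a median over all symbols of −0.23, against −0.12, and median-of-ratios scaling one of 0.00. In the hairpin comparison no member passed under any of the 9 alternatives. CCND3 changed sign there, against −0.01, to 0.018 with TPM and 0.032 with GC and length trends removed. The count of symbols called by limma for the hairpin, 14, was 2 without a filter, 9 at a mean of 5 FPKM, 28 without symbols listed at 0, 24 (15 higher) with median-of-ratios scaling and 7 (1 higher) with GC and length trends removed. With no replicate block it was 0, with 9 symbols at an unadjusted p under 0.05, and BTK was then among the calls lost (adjusted p = 1.00 in limma). BTK was also lost without a filter (adjusted p = 0.101). In the line comparison BTK was lost with TPM (adjusted p = 0.102) and with the line alone (adjusted p = 0.672). With a pseudocount of 0.1, 477 symbols in Z138 and 434 in Mino differed by 1.5-fold, against 202 and 248. With a looser fold rule these were 1090 and 1170, and CDK6 and RB1 were past it in Z138. The causes were not tested. Leaving out 1 library leaves the ratio of the other pair, with no residual degree of freedom and so no test. Read depth is unknown, and values under 0.1 FPKM, such as those of CCND2, limit what can be said.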
